A study of Mus musculus with 9 samples.

Results

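CPZ and ethanol were compared as additions to mouse peritoneal macrophages that were all stimulated with lipopolysaccharide (LPS). The genes described are those with a value of at least 1 FPKM, a level normalised for transcript length and library size, in at least 3 of the 6 libraries of these groups. This rule kept 10226 of the 55335 genes in the deposited table and made no use of how a gene differed between the treatments. Each group had 3 bulk RNA-seq libraries.

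All cells spent 1 h in RPMI 1640 medium and then 4 h with LPS at 1 µg/mL. The group called LPS+EtOH received 5% ethanol with the LPS, and the group called LPS+CPZ received CPZ at 100 µM, an abbreviation that the labels do not spell out. Ethanol is not listed among the additions to the CPZ group, so the contrast sets one addition against another and is not a test of CPZ on top of ethanol. A solvent control for CPZ and unstimulated cells were not analysed here. The study's group of 3 libraries with LPS alone, in which 4 globin genes held 11.5% to 29.4% of all FPKM, is given for orientation only and took no part in the tests. Strain, sex and age of the mice are not given in the labels. Each library was made from a pool of 3 RNA samples, and the labels do not say whether one animal contributed to several pools, so the p-values measure only the spread between pools.

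LPS is a bacterial cell wall component that macrophages bind with CD14 and sense with TLR4. The adaptor proteins MyD88 and TRIF then pass the signal on to NF-kB, to the MAP kinases and to the interferon response, and a set of induced inhibitors, such as the NF-kB inhibitor encoded by Nfkbia and the cytokine IL-10, limits it. The study's title concerns M2b macrophages, a regulatory state known for high IL-10, and the cation channel TRPV1 upstream of MAPK and NF-kB signalling.

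With CPZ in place of ethanol, RNA of glycolysis and hypoxia genes was higher in 25 of 29 tested cases. That of heat shock and cytosolic chaperone genes was higher in 29 of 31 and that of the integrated stress response in 22 of 26. Of all tested genes 60.6% were higher. NF-kB genes were lower in 23 of 33 cases, interferon response genes in 27 of 40 and neutrophil markers in 20 of 22, where 17.3% of all tested genes were lower. Summed levels with LPS alone lay nearer to LPS+CPZ for the NF-kB and neutrophil lists. For the interferon and inflammatory cytokine lists they lay above both groups. Il10, the gene of the cytokine IL-10, was 2.14-fold higher on the deposited scale, while Tnf and Il1b, genes of inflammatory cytokines, were 4.23-fold and 4.62-fold lower. Heme oxygenase-1 RNA, Hmox1, was 3.61-fold higher.

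The 6 libraries formed 2 tight groups. Pearson's correlation of their log2 values ran from 0.979 to 0.988 within a group and from 0.839 to 0.867 between groups, over genes, which are not replicates. The LPS+CPZ libraries held 10353 ± 249 genes at 1 FPKM or more (mean ± SD, n = 3, as for all group values here) and the LPS+EtOH libraries 8148 ± 189 (exact two-sided permutation p = 0.1, the smallest that 3 against 3 allows). S100a8 and S100a9, abundant genes of neutrophils, took 12.1 ± 0.334% of all FPKM in LPS+EtOH and 1.76 ± 0.132% in LPS+CPZ. Mitochondrially encoded genes took 2.14 ± 0.440% and 2.03 ± 0.0810% (exact permutation p = 0.7). Depth is unknown, since FPKM values are not counts.

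Of the 10226 genes tested with limma on log2(FPKM + 1), 7965 (77.9%) passed an adjusted p of 0.05, with 6198 (60.6%) higher and 1767 (17.3%) lower in LPS+CPZ. The median log2 difference of all tested genes, LPS+CPZ minus LPS+EtOH, was 0.59. Scaling each library by its median ratio to the others brought that median to 0.01, with 3494 genes (34.2%) higher and 3520 (34.4%) lower. All 3494 of those higher genes and all 1767 genes lower as deposited were called the same way under both scalings, while 138 genes changed direction. For the 2244 genes at a mean of 10 FPKM or more in both groups, median-ratio scaling lowered the log2 difference by 0.75 in the median, so the counts of each list are given under both scalings. The groups did not overlap for 6317 genes higher (61.8%) and 1830 lower (17.9%) in LPS+CPZ. Differences beyond 2 on the log2 scale were called for 345 genes higher and 201 lower. Of the tested genes 1709 were below 1 FPKM in all ethanol libraries and 226 in all CPZ libraries, so they entered through the group in which they are high and had to differ. This raises the count of higher genes more than that of lower ones. The same holds for each gene named here that was below 1 FPKM in all ethanol libraries, whatever its adjusted p.

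Among the 10 largest rises, Bnip3, which encodes a hypoxia-induced receptor for the removal of mitochondria, stood at 3.24, 1.67 and 2.5 FPKM with ethanol and 117, 92.5 and 113 with CPZ (log2 difference 4.98 ± 0.18 SE, limma adjusted p = 9.71e-07). Trib3, a pseudokinase gene of the integrated stress response, had 1.53, 0.696 and 0.968 FPKM with ethanol and 24.7, 35.5 and 38.8 with CPZ. The transcription factor gene Atf5 was at 1.83 ± 0.367 against 40.7 ± 4.02 FPKM. The alanyl-tRNA synthetase gene Aars was at 2.18 ± 0.31 against 46.5 ± 3.22 FPKM and the glycolytic gene Tpi1, which encodes triosephosphate isomerase, at 7.62 ± 1.53 against 135 ± 12.5 FPKM. None of these 5 genes had a library of one group inside the range of the other. The scavenger receptor gene Cd36 was at 0.306 ± 0.0978 against 29.5 ± 10.3 FPKM, the chemokine gene Pf4 at 0.962 ± 0.691 against 37.9 ± 12.1 FPKM and the lysosomal carboxypeptidase gene Scpep1 at 2.43 ± 0.359 against 56 ± 11.6 FPKM. The immunoglobulin segment Iglj2 had 0.0793, 12.1 and 0.102 FPKM with ethanol and 43.6, 86.8 and 73.2 with CPZ, so that 1 of the 3 ethanol pools stood far above the others. AC147560.1, a microRNA gene in GENCODE, had 0.000103, 0.00031 and 3.2e-05 FPKM with ethanol and 26.7, 27.4 and 39.6 with CPZ, and no fold is given for it.

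Of the 10 largest falls, S100a9 had 31084, 35025 and 34150.5 FPKM with ethanol and 3313, 3115 and 3196 with CPZ (log2 difference -3.38 ± 0.13 SE, limma adjusted p = 9.71e-07), a 10.4-fold lower mean with CPZ. Retnlg and Ngp, genes of secreted neutrophil proteins, were at 2853 ± 245 against 257 ± 18.5 FPKM and 568 ± 93.2 against 50.4 ± 2.12 FPKM. Hdc, the gene of the histamine-forming enzyme histidine decarboxylase, was at 199 ± 17.2 against 12.1 ± 2.17 FPKM. These 4 are on the list of neutrophil markers. G0s2, which encodes an inhibitor of triglyceride breakdown, had 465, 615 and 471 FPKM with ethanol and 23.5, 28.3 and 18.1 with CPZ (log2 difference -4.42 ± 0.18 SE, limma adjusted p = 9.71e-07). Nr4a1, an orphan nuclear receptor gene induced early after stimulation, had 401, 389.9 and 325 FPKM with ethanol and 29.2, 34.2 and 28.4 with CPZ (log2 difference -3.56 ± 0.13 SE, limma adjusted p = 9.71e-07). The retroviral-like protease gene Asprv1 was at 445 ± 60.1 against 36.2 ± 7.05 FPKM and the interferon-induced membrane protein gene Ifitm6 at 98.8 ± 20.2 against 6.38 ± 0.484 FPKM. The other falls were those of Mrgpra2b (305 ± 26.6 against 27.6 ± 1.76 FPKM), which encodes a Mas-related receptor, and Mir142hg (23.5 ± 2.67 against 0.889 ± 1.09 FPKM), the host gene of miR-142. For all 10 the lowest ethanol library lay above the highest CPZ library.

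**Figure D1:**
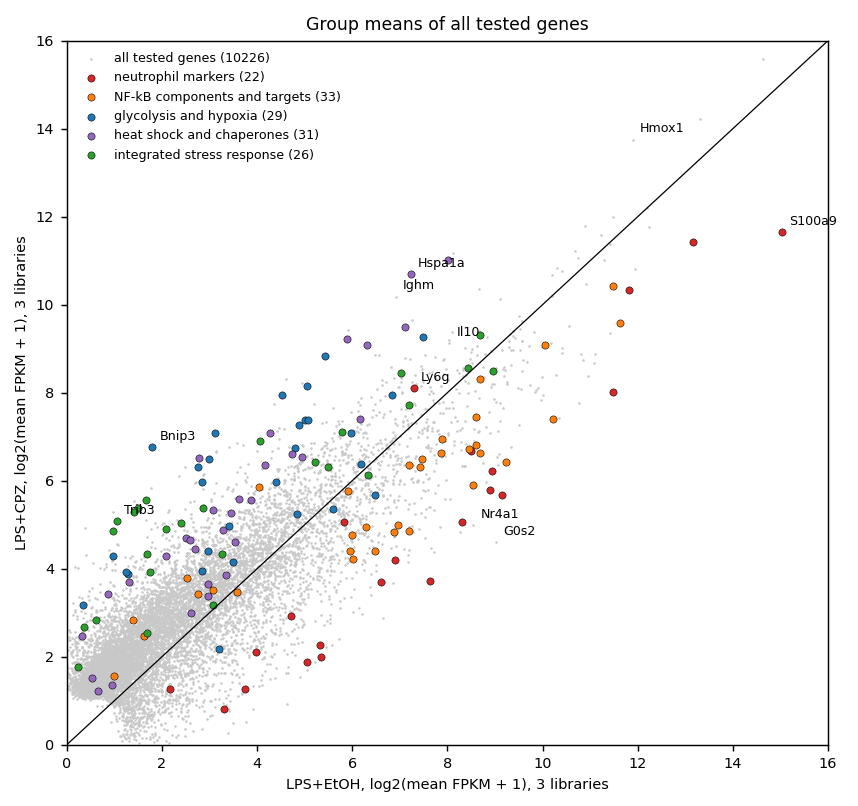
Each point is a tested gene at its mean level, log2(mean FPKM + 1) over 3 libraries, in LPS+EtOH (x axis) and LPS+CPZ (y axis), with 5 gene groups coloured and the line of equal level drawn. Glycolysis, stress response and chaperone genes lie mostly above the line, while neutrophil markers and NF-kB genes lie mostly below it.

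RNA of cell types other than macrophages also stood at different levels. Their part in the results for other gene groups was not tested. In bulk RNA, fewer cells of a type and less RNA per cell cannot be told apart. Of 22 tested neutrophil markers 20 were lower in LPS+CPZ and 1 was higher, with a median log2 difference of -2.70, and under median-ratio scaling 21 were lower. The level summed over that list was 48835 to 53646 FPKM in LPS+EtOH and 7804 to 8598 in LPS+CPZ. With LPS alone it was 4952 to 6735 FPKM, nearer to the CPZ libraries, and the ethanol libraries were the high ones. The exception was Ly6g, the surface antigen by which mouse neutrophils are sorted, with 147, 150.1 and 169.8 FPKM with ethanol and 284, 239 and 299 with CPZ (log2 difference 0.81 ± 0.13 SE, limma adjusted p = 0.000367). That difference was 0.03 and not called under median-ratio scaling. The chemokine receptor gene Cxcr2 was at 38.8 ± 15.7 against 3.81 ± 0.705 FPKM and the receptor gene Csf3r at 358 ± 3.36 against 101 ± 21.6 FPKM. The surface protein gene Cd177 was at 39.5 ± 6.18 against 2.96 ± 0.102 FPKM. Mmp9 (55.6 ± 33.8 and 32.3 ± 8.39 FPKM, limma adjusted p = 0.135) did not pass the test. Elane and Mpo, genes of granule enzymes made by immature neutrophils, were below 1 FPKM in all 6 libraries.

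B cell markers were higher in LPS+CPZ in 14 of 16 tested cases, none was lower, and the median was 1.82 (13 higher and 1 lower under median-ratio scaling). The level summed over that list was 184 to 249.6 FPKM in LPS+EtOH and 1316 to 1549 in LPS+CPZ. With LPS alone it was 1822 to 2631 FPKM, above both groups, and the ethanol libraries were the low ones. Ighm, the immunoglobulin M heavy chain gene, had 140.5, 109.9 and 108 FPKM with ethanol and 1060.5, 1189 and 1232 with CPZ (log2 difference 3.28 ± 0.14 SE, limma adjusted p = 9.71e-07), with no overlap. Ighd was at 2.5 ± 0.346 against 14.8 ± 1.48 FPKM and the B cell scaffold gene Bank1 at 0.217 ± 0.0491 against 4.15 ± 0.959 FPKM. Ms4a1, the gene of CD20, was at 1.22 ± 0.302 against 7.65 ± 1.62 FPKM. All 86 tested immunoglobulin variable segments were higher in LPS+CPZ, and 77 of them under median-ratio scaling, though near-identical segments can share fragments. Only 10 of 24 T and NK cell markers were tested, and 6 of these were below 1 FPKM in all ethanol libraries, so that they entered through the CPZ group and had to come out higher. The 9 that were higher and 0 that were lower (9 higher and 1 lower under median-ratio scaling) are therefore no support for a difference of the list. Il7r, the receptor gene for interleukin 7, was at 0.316 ± 0.0583 against 8.15 ± 0.318 FPKM. The T cell receptor gene Trbc2 had 0.091, 0 and 0 FPKM with ethanol and 4.08, 6.99 and 4.05 with CPZ, and both genes entered in that way. Several defining T cell genes, Cd3e and Cd4 among them, did not reach the filter. Cd3e had means of 0.0221 FPKM in LPS+EtOH and 0.986 in LPS+CPZ, and Cd4 of 0.00353 FPKM in LPS+EtOH and 0.81 in LPS+CPZ. Summed over all T and NK cell markers, the level was 15.2 to 22.4 FPKM in LPS+EtOH and 87.7 to 156 in LPS+CPZ. With LPS alone that sum was 253 to 330 FPKM, again above both groups. Red cell genes went the other way: all 5 tested were lower in LPS+CPZ under both scalings, with a summed level of 609 to 748 FPKM in LPS+EtOH and 154 to 350.1 in LPS+CPZ. Mast cell markers were lower in 4 of 7 cases (5 under median-ratio scaling) and higher in none, including Kit (3.0 ± 0.662 against 0.815 ± 0.391 FPKM) and the tryptase gene Tpsab1 (4.44 ± 3.44 against 0.905 ± 0.564 FPKM), and Hdc is on this list as well. Tpsab1 rested in part on 1 library, since its log2 difference of -1.38 became -0.90 without LPS+EtOH replicate 2. Mesothelial and fibroblast markers summed to 3.21 to 4.11 FPKM in LPS+EtOH and 3.18 to 3.6 in LPS+CPZ.

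The labelled cell type was checked with 18 macrophage markers, of which 4 did not reach the filter. Fcgr1, Mertk and Ms4a7, which were not tested, averaged 0.116, 0.0217 and 0.296 FPKM with ethanol. With CPZ they averaged 1.41, 0.208 and 0.94 FPKM. The 3 genes that follow therefore do not stand for the whole list. Adgre1, the gene of F4/80, had 85.2, 81.9 and 99.8 FPKM with ethanol and 79, 81.8 and 105 with CPZ. Cd68 was at 363 ± 34.2 and 405 ± 67.2 FPKM and the lysozyme gene Lyz2 at 226 ± 50.4 and 217 ± 70.9 FPKM. These 3 were present in every library, their groups overlapped, and limma called none of them (Adgre1 adjusted p = 0.933), while under median-ratio scaling they were lower in LPS+CPZ (log2 difference -0.78, -0.63 and -0.86). Other macrophage genes differed strongly and in both directions. Apoe was at 7.79 ± 3.46 against 100.0 ± 9.54 FPKM, the complement gene C1qc at 0.286 ± 0.151 against 4.49 ± 1.16 FPKM and Lyz1 at 0.847 ± 0.168 against 20.3 ± 7.47 FPKM. The LPS co-receptor gene Cd14 (2177 ± 221 against 406 ± 17 FPKM) and Spi1 (209 ± 22.9 against 73.4 ± 7.74 FPKM), the gene of the myeloid regulator PU.1, were lower. In all 8 of 14 tested macrophage markers were higher and 2 lower as deposited, but 6 higher and 6 lower under median-ratio scaling, and 3 of the 14 were below 1 FPKM in all ethanol libraries. Gata6 and Timd4, which define resident large peritoneal macrophages, were low in both groups, with means of 0.0338 FPKM in LPS+EtOH and 0.308 in LPS+CPZ for Gata6. Timd4 had 0.162 FPKM in LPS+EtOH and 0.977 in LPS+CPZ. Of the 13 tested markers of those cells 6 were higher and 3 lower as deposited, but 5 higher and 7 lower under median-ratio scaling, so the balance of both lists turned with the scaling. Prg4 (1.1 ± 0.778 against 22.1 ± 7.33 FPKM), Fcna (0.771 ± 0.684 against 15.5 ± 7.02 FPKM) and the acute-phase gene Saa3 (88.5 ± 7.97 against 463 ± 119.6 FPKM) were higher. Lrg1 (51.8 ± 1.66 against 4.26 ± 0.848 FPKM) and the coagulation factor gene F5 (1.99 ± 0.15 against 0.633 ± 0.151 FPKM) were lower. Among genes of monocytes and small peritoneal macrophages, Ly6c2 was at 16.2 ± 3.76 against 1.57 ± 0.252 FPKM and Retnla at 1.91 ± 0.415 against 37.8 ± 17.7 FPKM.

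**Figure D2:**
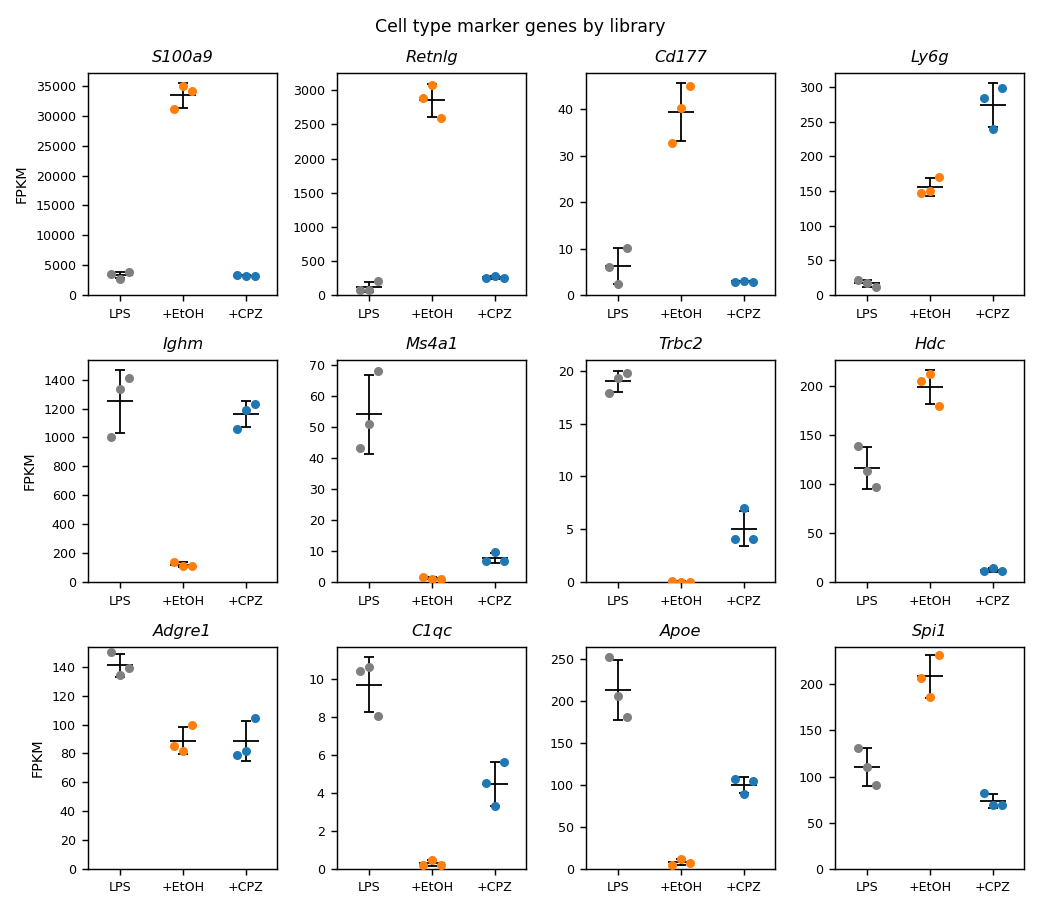
Points are the FPKM of single libraries for 12 cell type markers in LPS, LPS+EtOH and LPS+CPZ, and bars give the mean ± SD of 3 libraries. S100a9, Retnlg and Cd177 are lower with CPZ than with ethanol while Ly6g is higher, the B and T cell genes are higher with CPZ, and the groups overlap for Adgre1.

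Read against the shares of all genes, gene lists stood on both sides. Chaperone, stress response, glycolysis and B cell lists had more higher members than the 60.6% of all genes, and NF-kB, interferon, IL-10 response and neutrophil lists had more lower members than 17.3%. The 48 lists held 1114 entries, of which 920 were tested genes, some of them on several lists, and 75 of these were below 1 FPKM in all ethanol libraries and 2 in all CPZ libraries. Those members had to differ, and their number is given for the lists in which they made up the largest shares and for some others. The members' counts and medians stand beside the shares above and the median of 0.59 for all tested genes.

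**Figure D3:**
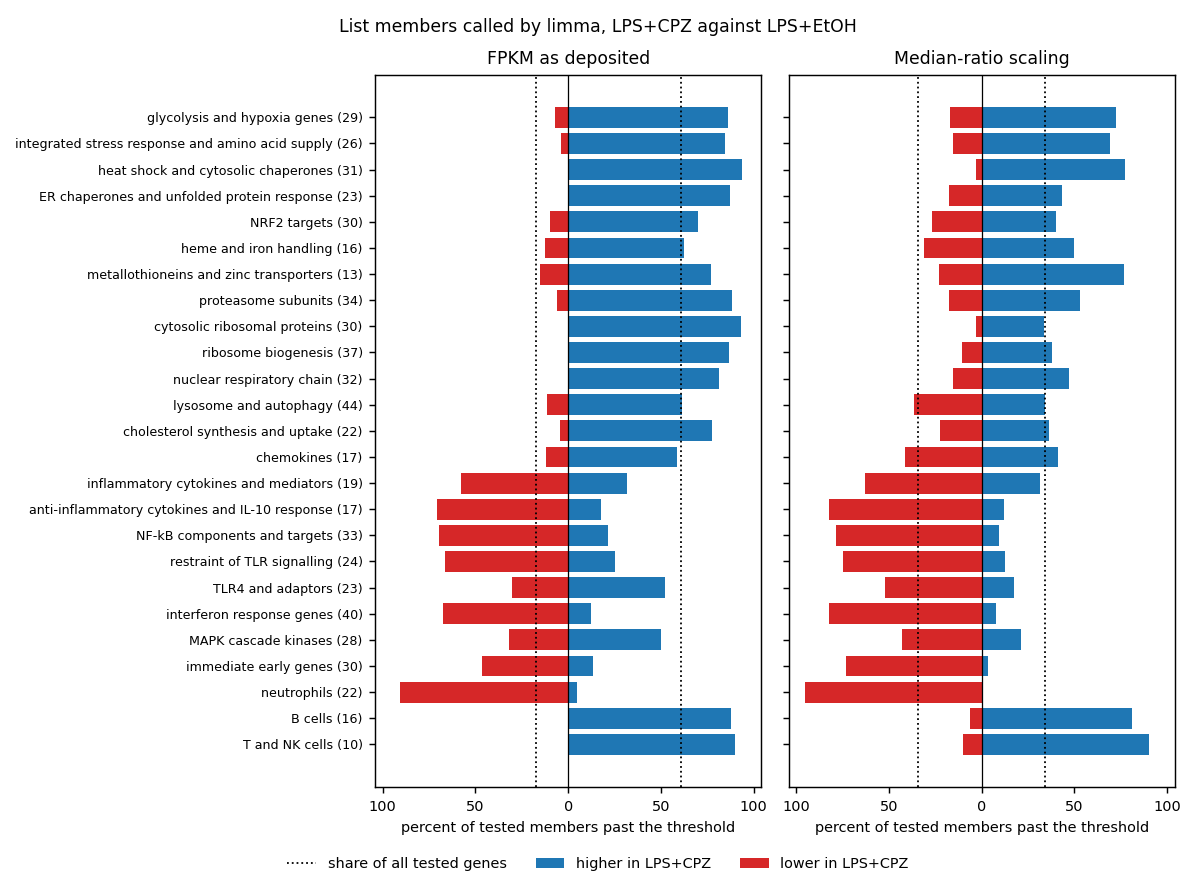
Bars show, for 25 lists, the percent of tested members called higher (blue) or lower (red) in LPS+CPZ by limma as deposited (left) and after median-ratio scaling (right), with the number tested in brackets and the shares of all tested genes as dotted lines. Glycolysis, heat shock and stress response lists exceed the share of higher genes in both panels, and NF-kB, interferon and neutrophil lists exceed the share of lower genes in both.

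Genes of glycolysis and of the response to low oxygen were among the most different of any list. Of 32 members 29 were tested, 25 were higher and 2 lower in LPS+CPZ, and their median log2 difference was 2.31. Median-ratio scaling gave 21 higher and 5 lower with a median of 1.54. Along the pathway, the glucose transporter gene Slc2a1 was at 28.6 ± 3.15 against 153 ± 2.05 FPKM and the phosphofructokinase gene Pfkl at 6.93 ± 1.28 against 88.5 ± 5.79 FPKM. Pgk1, which encodes phosphoglycerate kinase, was at 42 ± 7.48 against 458 ± 54.9 FPKM. Pgam1, the phosphoglycerate mutase gene, had 33.2, 28.1 and 35.3 FPKM with ethanol and 286, 283 and 281 with CPZ (log2 difference 3.11 ± 0.12 SE, limma adjusted p = 9.71e-07), an 8.81-fold higher mean. Ldha, which encodes the lactate-forming dehydrogenase, was at 32.5 ± 2.16 against 166 ± 28.3 FPKM. Pdk1, the gene of a kinase that inhibits pyruvate dehydrogenase, was at 0.256 ± 0.0373 against 8.06 ± 0.785 FPKM. It was below 1 FPKM in all ethanol libraries, so it entered through the CPZ group and had to come out higher. For each of these 6 genes the CPZ libraries lay above the ethanol libraries.

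Genes of oxygen sensing are on the same list. Egln3, the gene of a prolyl hydroxylase that marks HIF-1 alpha for destruction and is itself induced by HIF, had 5.32, 5.55 and 6.33 FPKM with ethanol and 94.9, 59.4 and 79.1 with CPZ (log2 difference 3.53 ± 0.17 SE, limma adjusted p = 1.63e-06). Vegfa, which encodes the vascular growth factor, was at 26.7 ± 1.26 against 105 ± 4.87 FPKM. Hif1a itself was lower, with 90.6, 74.9 and 96.8 FPKM with ethanol and 54.4, 50.7 and 44.1 with CPZ (log2 difference -0.80 ± 0.14 SE, limma adjusted p = 0.000637). Pfkfb4, a regulator of phosphofructokinase, was also lower (8.23 ± 1.4 against 3.54 ± 0.809 FPKM). With LPS alone, Bnip3 had 2.36, 1.53 and 1.47 FPKM, Egln3 3.13, 1.36 and 1.69 and Tpi1 9.08, 9.71 and 9.81, values on the side of the ethanol group.

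The integrated stress response couples stress sensed by eIF2 alpha kinases, which slow protein synthesis, to the transcription factor ATF4 and to amino acid supply. Of 26 tested members 22 were higher and 1 lower, with a median of 1.85, and 18 were higher and 4 lower under median-ratio scaling (median 1.36). Asns, the asparagine synthetase gene, had 1.87, 1.42 and 1.7 FPKM with ethanol and 32.3, 37.7 and 44.2 with CPZ (log2 difference 3.87 ± 0.15 SE, limma adjusted p = 9.71e-07). Mthfd2, a gene of mitochondrial one-carbon metabolism, had 1.11, 0.995 and 0.80 FPKM with ethanol and 22.5, 29.2 and 31.7 with CPZ (log2 difference 3.86 ± 0.15 SE, limma adjusted p = 9.71e-07). Each of its CPZ libraries lay above 20 FPKM while no ethanol library passed 2. The regulators on the list were divided: Trib3 and Atf5 are among the 10 largest rises described above, while Atf4, Ddit3 and Atf3 had smaller differences. Atf4 was at 146 ± 10.6 against 208 ± 32.5 FPKM (log2 difference 0.50, and -0.27, of opposite sign and not called, under median-ratio scaling). Ddit3, the gene of the pro-apoptotic factor CHOP, was at 54.1 ± 2.36 against 137 ± 14 FPKM and Atf3 at 129 ± 9.56 against 349 ± 33 FPKM. Ppp1r15a, which encodes the phosphatase subunit that ends the response, was lower (498 ± 48.3 against 362 ± 15.6 FPKM, log2 difference -0.45 ± 0.12 SE, limma adjusted p = 0.00593; -0.12 and not called after quantile scaling). With LPS alone, Trib3 had 45.7, 56 and 44 FPKM, Asns 37.3, 36 and 34 and Mthfd2 56.8, 70.01 and 56.3, so for these genes the LPS libraries lay near or above the CPZ libraries and the ethanol libraries were the low ones.

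Heat shock proteins and cytosolic chaperones hold and refold denatured proteins, and heat shock factor 1 controls many of their genes. Genes of this list were higher in LPS+CPZ in 29 of 31 tested cases. None was lower, and the median was 1.93. Median-ratio scaling left 24 higher and 1 lower with a median of 1.19. Hspa1a and Hspa1b are near-identical genes of inducible HSP70, between which fragments can be divided wrongly. Hspa1a had 185, 137 and 124 FPKM with ethanol and 1335, 2031 and 1591 with CPZ (log2 difference 3.47 ± 0.20 SE, limma adjusted p = 2.61e-06), and Hspa1b was at 257 ± 55.6 against 2080.4 ± 465 FPKM. Hsp90aa1, the inducible HSP90 gene, had 63.3, 57.1 and 54.9 FPKM with ethanol and 501, 663 and 629 with CPZ (log2 difference 3.32 ± 0.14 SE, limma adjusted p = 9.71e-07), a 10.2-fold higher mean. Every CPZ library exceeded every ethanol library for these genes. Hspa8, which encodes the constitutive HSC70, was at 78.5 ± 11.7 against 538 ± 47.2 FPKM and the nucleotide exchange factor gene Hsph1 at 5.86 ± 1.75 against 89.8 ± 24 FPKM. The HSP40 gene Dnajb1 was at 18.3 ± 1.17 against 134 ± 37.6 FPKM and the co-chaperone gene St13 at 7.4 ± 0.593 against 39.1 ± 2.9 FPKM. Chordc1, which encodes an HSP90 partner, was at 0.825 ± 0.248 against 9.65 ± 2.51 FPKM. Hsf1 was itself at 0.445 ± 0.0926 against 1.85 ± 0.567 FPKM (log2 difference 0.96, and 0.33 and not called after quantile scaling). Hspa4l (5.1 ± 0.842 and 6.92 ± 1.09 FPKM) and Cryab (0.914 ± 0.559 and 1.56 ± 0.636 FPKM) did not pass the test. Their log2 differences were 0.38 and 0.43 as deposited, and were -0.29 for Hspa4l under median-ratio scaling and -0.16 for Cryab after quantile scaling. Each was called higher without 1 library, Hspa4l at 0.45 without LPS+EtOH replicate 2 and 0.49 without LPS+CPZ replicate 1, and Cryab at 0.64 without LPS+EtOH replicate 3 and 0.65 without LPS+CPZ replicate 2. With LPS alone, Hspa1a had 6.88, 14 and 32.8 FPKM, below both groups.

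Because chaperone genes moved together, the RefSeq promoters of 3 of them are shown (GRCm38.p6, 250 bases before to 50 after the start), with matches to a heat shock element in capitals. The letters searched were GAA, TTC and GAA in turn, or TTC, GAA and TTC, with NN between each, on both strands, and overlapping matches were kept. Hspa1a lies at chr17:34972107-34972406, minus strand, and is shown as a leading member though this window holds none of these letters. Hsph1 lies at chr5:149636266-149636565, minus strand, with a match that starts 16 bases into the transcript. Chordc1 lies at chr9:18292017-18292316, plus strand, with 3 overlapping matches, the earliest at -4.
Hspa1a: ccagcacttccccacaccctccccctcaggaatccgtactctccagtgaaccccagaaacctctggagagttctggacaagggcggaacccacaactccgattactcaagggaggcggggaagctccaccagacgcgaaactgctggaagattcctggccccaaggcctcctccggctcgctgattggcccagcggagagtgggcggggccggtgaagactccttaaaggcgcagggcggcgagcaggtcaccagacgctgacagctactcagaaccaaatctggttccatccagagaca
Hsph1: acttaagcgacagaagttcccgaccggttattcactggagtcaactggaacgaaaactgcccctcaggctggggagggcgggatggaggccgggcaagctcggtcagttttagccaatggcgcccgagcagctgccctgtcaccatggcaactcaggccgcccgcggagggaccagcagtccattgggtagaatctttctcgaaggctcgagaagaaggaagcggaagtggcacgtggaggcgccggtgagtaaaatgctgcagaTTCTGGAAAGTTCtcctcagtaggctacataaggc
Chordc1: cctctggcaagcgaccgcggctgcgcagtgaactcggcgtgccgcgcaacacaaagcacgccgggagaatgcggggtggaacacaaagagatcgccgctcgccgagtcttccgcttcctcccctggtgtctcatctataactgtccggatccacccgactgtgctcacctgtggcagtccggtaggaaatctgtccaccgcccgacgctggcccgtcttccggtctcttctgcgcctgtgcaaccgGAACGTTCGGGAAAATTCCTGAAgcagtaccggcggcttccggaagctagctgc
A match was found in 5 of the 25 tested chaperone genes with a promoter in the table (20%), namely Hsph1, Chordc1, Dnajb6, Hspd1 and Hspe1, against 0.596% of the 6882 tested genes with a promoter and 0.662% of all 27025. The windows of Hspd1 and Hspe1, which lie head to head, overlap. A match is a description of letters, and an absent match says only that these letters are not in this window.

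Chaperones of the endoplasmic reticulum, where secreted proteins fold, had a smaller difference. Of 23 tested members 20 were higher and none lower (median 0.93), and 10 were higher and 4 lower under median-ratio scaling. Hyou1, an HSP70 relative of that compartment, was at 5.45 ± 0.512 against 28.5 ± 0.632 FPKM (log2 difference 2.20 ± 0.11 SE, limma adjusted p = 2.05e-06). Ern1, which encodes the stress sensor IRE1 alpha, was at 1.31 ± 0.222 against 9.06 ± 0.512 FPKM, Dnajc3 at 1.39 ± 0.134 against 6.83 ± 0.575 FPKM and calnexin, Canx, at 25.3 ± 3.41 against 79.99 ± 4.27 FPKM. Hspa5, the gene of the main chaperone BiP, had 178, 189 and 187 FPKM with ethanol and 173, 185 and 231 with CPZ. The 2 groups overlapped (limma adjusted p = 0.593), and the difference of 0.08 became -0.70 and was called lower under median-ratio scaling.

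**Figure D4:**
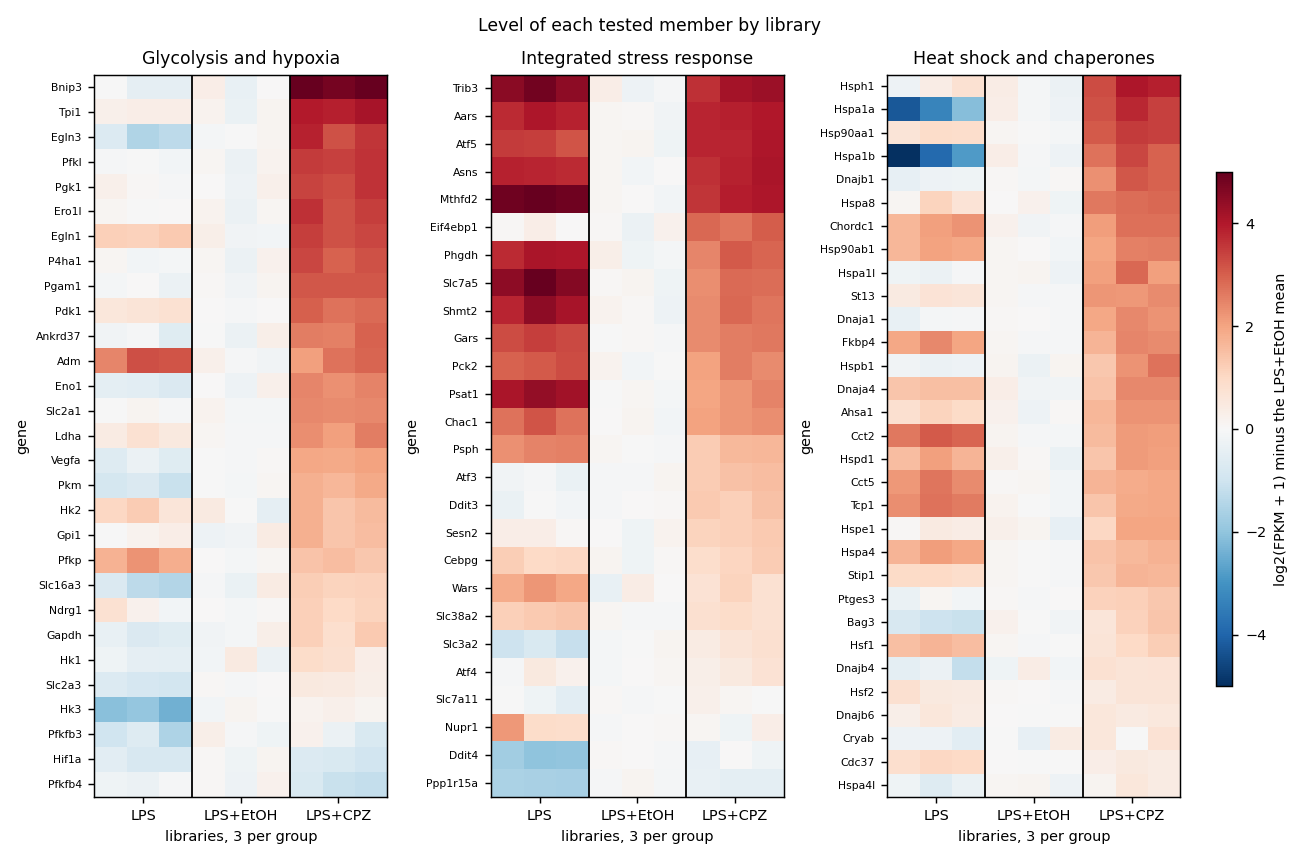
Each row is a tested gene and each column a library, and colour gives log2(FPKM + 1) minus the mean of the 3 LPS+EtOH libraries. Most glycolysis and heat shock genes are highest in the 3 LPS+CPZ libraries, though chaperonin genes such as Cct5 are as high in LPS, while many genes of the integrated stress response are high in LPS+CPZ and LPS and low in LPS+EtOH.

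NRF2 is the transcription factor that electrophiles release from KEAP1 and that drives antioxidant genes. Of 30 tested targets 21 were higher and 3 lower in LPS+CPZ, with a median of 0.89, and 12 were higher and 8 lower under median-ratio scaling (median 0.11). The share of higher genes was thus above that of all genes by less than for the chaperones. Glutathione synthesis split within the list. Gclc, the catalytic subunit gene of the rate-limiting enzyme, had 56.7, 48.6 and 71.5 FPKM with ethanol and 781, 614 and 661 with CPZ (log2 difference 3.53 ± 0.16 SE, limma adjusted p = 1.35e-06), an 11.6-fold higher mean. Its partner Gclm was at 38.2 ± 4.15 against 72.2 ± 5.94 FPKM (0.14 and not called under median-ratio scaling). Slc7a11, the cystine importer gene, was at 347 ± 14.1 and 376 ± 35.4 FPKM without passing the test (log2 difference 0.11, and -0.66 and called lower under median-ratio scaling). Prdx1, a peroxide-reducing enzyme gene, had 252, 241 and 339.6 FPKM with ethanol and 2123, 1997 and 2759 with CPZ (log2 difference 3.04 ± 0.18 SE, limma adjusted p = 2.97e-06). Catalase, Cat, was at 12 ± 3.0 against 110.5 ± 8.31 FPKM. The groups were far apart for Gclc, Prdx1 and Cat. Nfe2l2, the gene of NRF2 itself, was lower (518 ± 21 against 375 ± 20.9 FPKM, log2 difference -0.47 ± 0.11 SE, limma adjusted p = 0.00343; -0.14 and not called after quantile scaling). G6pdx, which encodes the entry enzyme of the pentose phosphate pathway, was also lower (77.3 ± 14.7 against 47.8 ± 4.55 FPKM).

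Heme breakdown and iron storage showed high levels in both groups. Hmox1, the gene of heme oxygenase-1, had 3235, 3986 and 4235 FPKM with ethanol and 12689.7, 12546 and 16084 with CPZ (log2 difference 1.85 ± 0.16 SE, limma adjusted p = 1.78e-05), against 516, 489 and 549 FPKM with LPS alone. Blvrb, the biliverdin reductase gene of the next step, was at 22.7 ± 2.87 against 144 ± 21.6 FPKM, and Slc48a1, a heme transporter gene, at 47 ± 8.79 against 199 ± 33 FPKM. Ftl1, which encodes ferritin light chain and has near-identical pseudogenes, was at 10153 ± 441 against 19009.7 ± 2878 FPKM, a log2 difference of 0.89 that was 0.11 and not called under median-ratio scaling. Fth1, the heavy chain gene, was at 4701 ± 461 and 4687 ± 542 FPKM (limma adjusted p = 0.972), called lower under median-ratio scaling (-0.79) and higher after quantile scaling (0.59). The transferrin receptor gene Tfrc was at 4.67 ± 0.377 against 18.6 ± 1.19 FPKM, and Lrp1, a receptor for the heme-hemopexin complex, at 0.177 ± 0.0344 against 1.6 ± 0.131 FPKM. Lcn2, the gene of the iron-siderophore binder lipocalin 2, which is also a neutrophil granule protein, was lower (3593 ± 204 against 1288 ± 156 FPKM), as was hepcidin, Hamp (16.3 ± 5.97 against 5.88 ± 1.74 FPKM). In all 10 of 16 tested heme and iron genes were higher and 2 lower, and 8 and 5 under median-ratio scaling. The share of higher members as deposited was near the 60.6% of all genes. Of the 16, 3 were below 1 FPKM in all ethanol libraries and had to come out higher.

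Metallothioneins bind zinc and copper and are induced through the zinc sensor MTF1. Mt2 had 8.3, 6.93 and 8.27 FPKM with ethanol and 47.4, 61.2 and 73.3 with CPZ (log2 difference 2.78 ± 0.17 SE, limma adjusted p = 3.5e-06), and Mt1 was at 11.3 ± 2.36 against 35.3 ± 8.29 FPKM. Slc30a1, the gene of the zinc exporter of the cell surface, had 1.79, 1.39 and 1.52 FPKM with ethanol and 16.9, 18.9 and 20.1 with CPZ (log2 difference 2.94 ± 0.13 SE, limma adjusted p = 1.02e-06). No library of one group reached the other for these 3 genes. The importer genes Slc39a7 (3.78 ± 0.273 against 19.9 ± 2.33 FPKM) and Slc39a6 (1.12 ± 0.147 against 6.77 ± 0.778 FPKM) were higher. Slc39a1 (38.1 ± 3.82 against 14.3 ± 2.2 FPKM) and the exporter gene Slc30a6 (4.23 ± 0.222 against 2.77 ± 0.0869 FPKM) were lower. Of 13 tested members of this list 10 were higher and 2 lower, and 10 and 3 under median-ratio scaling.

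For the antioxidant and zinc genes the promoters of 3 members that moved are shown from the same RefSeq table, with matches in capitals. Prdx1 lies at chr4:116685349-116685648, plus strand, with a match to the antioxidant response element TGACNNNGC, read on the other strand, that starts at -133. Mt1 lies at chr8:94178839-94179138, plus strand, with 3 matches to the metal response element, written TGCACNC or TGCGCNC on either strand, at -23, 3 and 21. Slc30a1 lies at chr1:191906531-191906830, plus strand, with matches at -43 and 31.
Prdx1: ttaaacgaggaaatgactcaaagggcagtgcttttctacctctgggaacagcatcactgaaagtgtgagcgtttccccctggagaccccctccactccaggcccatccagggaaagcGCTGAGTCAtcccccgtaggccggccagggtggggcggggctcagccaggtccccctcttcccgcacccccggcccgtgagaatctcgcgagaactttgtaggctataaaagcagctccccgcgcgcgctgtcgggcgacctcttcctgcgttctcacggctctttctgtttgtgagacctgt
Mt1: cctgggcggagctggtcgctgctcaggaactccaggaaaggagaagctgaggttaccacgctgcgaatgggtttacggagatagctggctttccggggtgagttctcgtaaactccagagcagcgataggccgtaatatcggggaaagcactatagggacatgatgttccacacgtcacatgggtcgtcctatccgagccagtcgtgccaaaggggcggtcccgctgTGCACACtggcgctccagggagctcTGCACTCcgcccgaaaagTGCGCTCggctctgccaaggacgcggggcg
Slc30a1: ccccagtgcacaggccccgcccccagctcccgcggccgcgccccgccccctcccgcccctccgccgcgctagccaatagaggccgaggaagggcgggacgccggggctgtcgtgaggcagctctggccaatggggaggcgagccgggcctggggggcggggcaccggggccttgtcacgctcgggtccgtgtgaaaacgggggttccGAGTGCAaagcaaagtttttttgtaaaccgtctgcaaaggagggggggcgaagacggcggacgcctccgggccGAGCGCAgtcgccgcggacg
The antioxidant response element letters stood in 10 of 24 tested NRF2 targets with a promoter (41.7%), against 17.4% of tested genes and 14% of all genes in the table. The holders included Prdx1 and Gclm, which were higher as deposited, and Nfe2l2 and G6pdx, which were lower. The letters thus stood in genes of both directions. The metal response element letters stood in 5 of 11 genes of the zinc list (45.5%), against 39.2% of tested genes and 28.2% of all, a share near that of any tested gene.

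NF-kB genes were lower in LPS+CPZ than in LPS+EtOH. Of 33 tested components and targets 23 were lower and 7 higher, with a median of -1.17, and 26 were lower and 3 higher under median-ratio scaling. Their summed level was 12175 to 13960 FPKM in LPS+EtOH and 4131 to 4955 in LPS+CPZ. With LPS alone it was 5100 to 6978 FPKM, nearer to the CPZ libraries, and the ethanol libraries were the high ones. Nfkbia, the gene of the inhibitor IkB alpha, which NF-kB itself induces, had 3189, 3289.7 and 3077 FPKM with ethanol and 808, 862 and 619 with CPZ (log2 difference -2.07 ± 0.15 SE, limma adjusted p = 7.17e-06), without overlap. Among the subunits, Rel was at 116 ± 15.3 against 27.6 ± 5.1 FPKM and Nfkb1 at 60.8 ± 6.57 against 20.1 ± 3.67 FPKM. Rela, the gene of p65, was at 58.7 ± 6.71 and 53.4 ± 6.89 FPKM (limma adjusted p = 0.374; -0.90 and called lower under median-ratio scaling). Bcl3, an atypical IkB protein gene, had 155, 147 and 136 FPKM with ethanol and 30.2, 29.8 and 24.2 with CPZ (log2 difference -2.34 ± 0.12 SE, limma adjusted p = 2.21e-06), and Nfkbid was at 123 ± 4.68 against 30.7 ± 2.29 FPKM. Of the targets, Tnfaip2 was at 368 ± 47.5 against 58.6 ± 9.73 FPKM, and Bcl2a1b, one of a family of near-identical survival genes, at 1194 ± 217 against 168 ± 19.8 FPKM. Genes of the kinase complex went the other way: Chuk, which encodes IKK alpha, was at 4.76 ± 0.855 against 12.8 ± 0.841 FPKM and Ikbkg, which encodes NEMO, at 15.5 ± 5.07 against 57.3 ± 10.3 FPKM.

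Genes that restrain TLR signalling were lower together with the NF-kB genes that several of them belong to. Of 24 tested, 16 were lower and 6 higher, and 18 and 3 under median-ratio scaling. Cish, a suppressor of cytokine receptor signalling, was at 46.9 ± 9.96 against 3.79 ± 0.807 FPKM (log2 difference -3.31 ± 0.18 SE, limma adjusted p = 2.37e-06), and Trib1, a pseudokinase gene that directs protein breakdown, at 195 ± 13.4 against 41.1 ± 4.42 FPKM. Tnfaip3, the gene of the ubiquitin-editing enzyme A20, had 489, 405 and 329.5 FPKM with ethanol and 68.5, 149 and 75.1 with CPZ (log2 difference -2.12 ± 0.28 SE, limma adjusted p = 0.000142). Socs3, which the IL-10 receptor induces, had 622, 611 and 404 FPKM with ethanol and 95.4, 111 and 80.4 with CPZ (log2 difference -2.48 ± 0.19 SE, limma adjusted p = 1.06e-05). The restraint genes that were higher included Atf3, Hmox1 and Il10.

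At the receptor, Cd14 had 2333, 2274 and 1924 FPKM with ethanol and 401, 425 and 392 with CPZ (log2 difference -2.42 ± 0.12 SE, limma adjusted p = 1.85e-06). Tlr4 had 32.7, 34 and 30.8 FPKM with ethanol and 3.27, 14.6 and 11.4 with CPZ (log2 difference -1.83 ± 0.41 SE, limma adjusted p = 0.00292), and the CPZ library at 3.27 FPKM stood below the other 2. Myd88 was at 97.3 ± 2.76 against 22.6 ± 1.33 FPKM. The adaptor gene of the TRIF branch, Ticam1, was higher (3.69 ± 0.257 against 11.9 ± 2.26 FPKM), as was the kinase gene Irak1 (3.83 ± 0.295 against 11 ± 0.597 FPKM). So were the ubiquitin ligase gene Peli1 (8.49 ± 0.219 against 19 ± 1.59 FPKM) and Tab1 (0.322 ± 0.103 against 1.21 ± 0.167 FPKM), an activator of the kinase TAK1, which was not called after quantile scaling (0.12). Of 23 tested genes of the TLR4 pathway 12 were higher and 7 lower, whereas 4 were higher and 12 lower under median-ratio scaling, so the balance of this list turned with the scaling. Cd14, Tlr4 and the NF-kB targets were lower in the same libraries in which 20 of 22 neutrophil markers were lower. The part of neutrophil RNA in these values, and in those of the cytokine, IL-10 response and interferon genes that follow, was not tested.

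**Figure D5:**
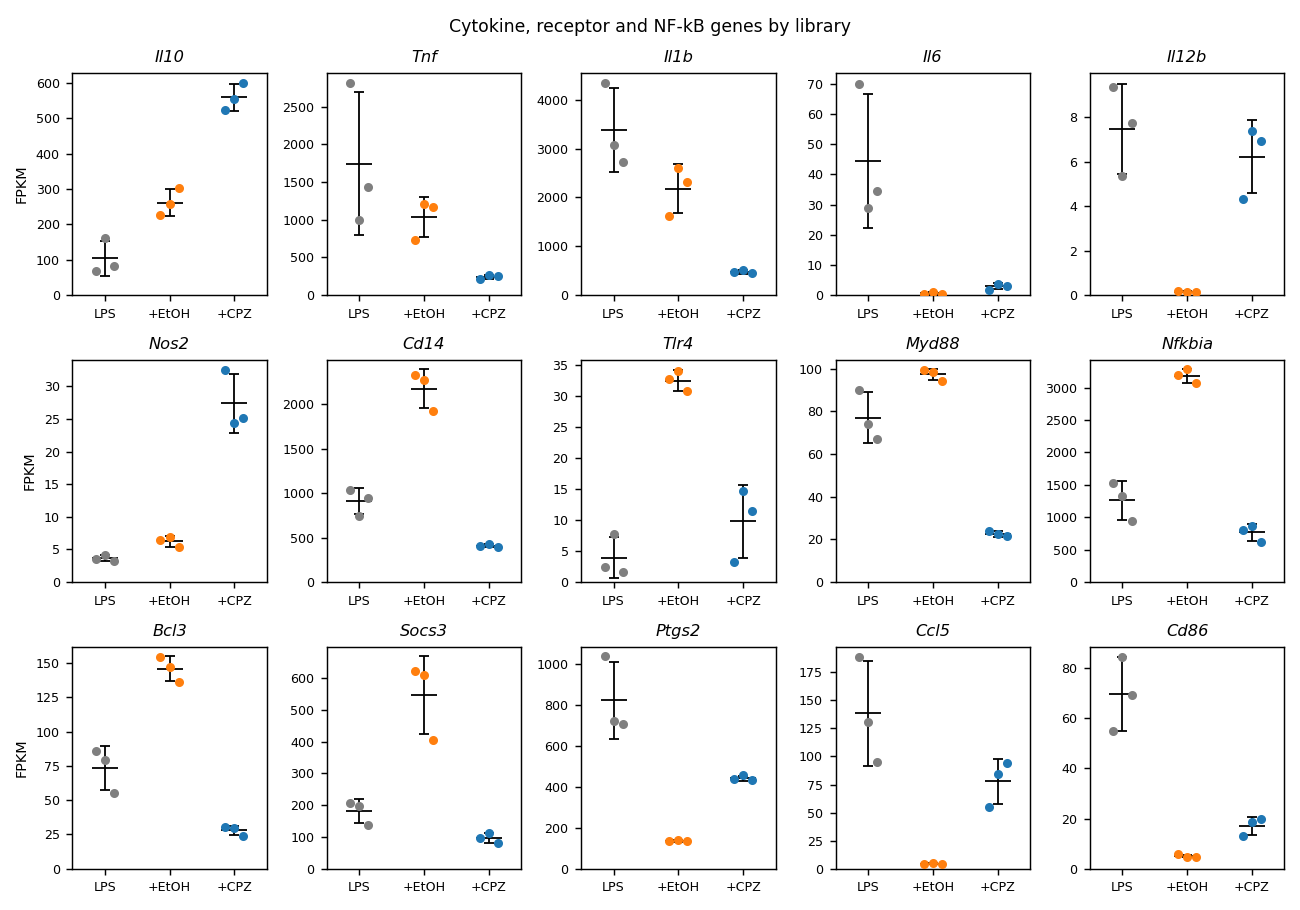
Points are the FPKM of single libraries for 15 genes of cytokines, LPS sensing and NF-kB signalling in LPS, LPS+EtOH and LPS+CPZ, and bars give the mean ± SD of 3 libraries. Il10, Nos2, Ptgs2, Ccl5 and Cd86 are higher with CPZ than with ethanol, and Tnf, Il1b, Cd14, Myd88, Nfkbia, Bcl3 and Socs3 lower.

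Cytokine genes were divided. Il10 (ENSMUSG00000016529) had 225, 256 and 303 FPKM with ethanol and 524, 553 and 599.9 with CPZ (log2 difference 1.10 ± 0.14 SE, limma adjusted p = 9.55e-05), without overlap. The difference was 0.32 and was not called under median-ratio scaling (adjusted p = 0.0994). Tnf had 735, 1210.2 and 1165 FPKM with ethanol and 218, 269 and 248 with CPZ (log2 difference -2.05 ± 0.20 SE, limma adjusted p = 2.72e-05). Il1b had 1623, 2610.2 and 2314 FPKM with ethanol and 463, 509 and 447 with CPZ (log2 difference -2.18 ± 0.18 SE, limma adjusted p = 1.35e-05). Both inflammatory genes were lower in every CPZ library. Il6 and Il12b were below 1 FPKM in all ethanol libraries, so they entered through the CPZ group and had to come out higher. Il6 had 0.393, 0.885 and 0.313 FPKM with ethanol and 1.81, 3.8 and 2.9 with CPZ (log2 difference 1.31 ± 0.21 SE, limma adjusted p = 0.000456). Il12b, the gene of the p40 subunit of IL-12 and IL-23, had 0.188, 0.125 and 0.158 FPKM with ethanol and 4.34, 7.38 and 6.95 with CPZ (log2 difference 2.61 ± 0.17 SE, limma adjusted p = 5.41e-06). With LPS alone, Il6 had 70.01, 28.9 and 34.5 FPKM, far above both groups, and Il12b 9.37, 5.35 and 7.76, near the CPZ group. Il23a, which encodes the other subunit of IL-23, was at 7.12 ± 1.67 against 0.996 ± 0.131 FPKM, and Ebi3, which encodes a subunit of IL-27, at 341 ± 22.8 against 103 ± 22.2 FPKM. Of 19 tested inflammatory cytokines and mediators 11 were lower and 6 higher, with a median of -0.80, and 12 and 6 under median-ratio scaling. Of the 19, 2 were below 1 FPKM in all ethanol libraries. The level summed over that list was 3347 to 5045 FPKM in LPS+EtOH and 1527 to 1671 in LPS+CPZ. With LPS alone it was 5716 to 9745 FPKM, above both groups, and the CPZ libraries lay farthest from it.

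Genes of the IL-10 response were lower in the libraries in which Il10 was higher. In the list of anti-inflammatory cytokines and IL-10 response genes 12 of 17 were lower and 3 higher, with a median of -0.98 (14 and 2 under median-ratio scaling). Il1r2, the gene of the decoy receptor for IL-1, which neutrophils also express, was at 119 ± 8.92 against 17.4 ± 2.14 FPKM and the lipid receptor gene Gpr84 at 52.4 ± 6.0 against 7.62 ± 1.78 FPKM. The antagonist gene Il1rn was at 547 ± 263 against 162 ± 35 FPKM and the IL-10 receptor gene Il10ra at 47 ± 2.69 against 23.3 ± 1.04 FPKM. Stat3, the transcription factor gene downstream of that receptor, was higher (21.7 ± 1.01 against 54.8 ± 5.67 FPKM), as was Slamf1 (0.295 ± 0.112 against 2.64 ± 0.40 FPKM), a receptor of the SLAM family.

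Of the M2b markers, Cd86, which encodes a costimulatory ligand, was at 5.09 ± 0.589 against 17.2 ± 3.53 FPKM (log2 difference 1.56 ± 0.17 SE, limma adjusted p = 4.46e-05). With LPS alone it had 55, 84.4 and 69.2 FPKM, above both groups. Il10 and Il6 were higher as well, while Il1b and Tnf were lower. Tnfsf14, the gene of LIGHT, had 91, 105 and 68.6 FPKM with ethanol and 74.5, 72.6 and 56.4 with CPZ. Its groups overlapped (log2 difference -0.36, limma adjusted p = 0.0902), and it was called lower under median-ratio scaling (-1.13) and, at -0.53, without LPS+EtOH replicate 3. Sphk1, a sphingosine kinase gene, was at 1.0 ± 0.284 and 1.14 ± 0.371 FPKM (limma adjusted p = 0.592), a log2 difference of 0.09 that was -0.31 under median-ratio scaling and -0.53 after quantile scaling. Ccl1 was below 1 FPKM in all 6 libraries. Of the 7 tested M2b markers 3 were thus higher and 2 lower, as against 2 and 3 under median-ratio scaling. Il6, 1 of those higher, was below 1 FPKM in all ethanol libraries and had to come out so. The alternative state M2a was divided too, with 5 of 12 higher and 5 lower (4 higher and 7 lower under median-ratio scaling), 3 of the 12 being below 1 FPKM in all ethanol libraries. Retnla had 2.18, 1.43 and 2.12 FPKM with ethanol and 31.2, 24.4 and 57.8 with CPZ (log2 difference 3.65 ± 0.28 SE, limma adjusted p = 1.03e-05). Arg1, the arginase gene, had 0.0899, 0.028 and 0.175 FPKM with ethanol and 2.2, 1.17 and 7.0 with CPZ (log2 difference 1.80 ± 0.39 SE, limma adjusted p = 0.00262), the third CPZ library being the highest. Fn1, the fibronectin gene, was at 0.415 ± 0.119 against 4.65 ± 1.72 FPKM and the chemokine gene Ccl24 at 0.633 ± 0.14 against 5.42 ± 3.67 FPKM. Chil3, a chitinase-like gene, was lower (45.4 ± 6.4 against 6.65 ± 1.24 FPKM), as was the transglutaminase gene Tgm2 (282 ± 16.7 against 119 ± 8.48 FPKM).

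Interferon response genes were lower in 27 of 40 tested cases and higher in 5 (median -0.99), and 33 and 3 under median-ratio scaling. Only 20 of the 40 were lower without overlap between the groups, where 17.9% of all tested genes were. Without the filter 18 of 42 were lower, against 2241 of 31463 genes, and with a robust variance model 24 of 40 were lower. Isg20, an antiviral exonuclease gene, had 33.5, 32.1 and 34.7 FPKM with ethanol and 11.5, 12.1 and 11.4 with CPZ (log2 difference -1.44 ± 0.10 SE, limma adjusted p = 7.97e-06), with the groups well apart. Oas3, which makes the activator of RNase L, was at 38.3 ± 2.7 against 12.3 ± 1.95 FPKM and the ADP-ribosyltransferase gene Parp14 at 74.5 ± 14.4 against 17.2 ± 3.91 FPKM. Ddx58, the gene of the RNA sensor RIG-I, was at 14.8 ± 0.171 against 5.38 ± 0.755 FPKM. Bst2, the gene of the virus-tethering protein tetherin, was higher (22.2 ± 4.12 against 53.5 ± 6.85 FPKM), as was the GTPase gene Iigp1 (0.125 ± 0.0792 against 1.95 ± 0.65 FPKM). Ifnb1, the gene of interferon beta, was below the filter at means of 0.0541 FPKM in LPS+EtOH and 0.103 in LPS+CPZ.

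Of 17 tested chemokine genes 10 were higher and 2 lower, a share of higher members below the 60.6% of all genes, and 7 and 7 under median-ratio scaling. Of the 17, 3 were below 1 FPKM in all ethanol libraries and had to come out higher. Ccl5, which attracts T cells and monocytes, had 4.14, 5.17 and 4.44 FPKM with ethanol and 55.3, 84 and 94.4 with CPZ (log2 difference 3.79 ± 0.19 SE, limma adjusted p = 2e-06), a 17-fold higher mean. Cxcl5, a neutrophil attractant gene, was at 0.10 ± 0.0445 against 2.63 ± 0.783 FPKM and the monocyte attractant gene Ccl7 at 1.2 ± 0.289 against 7.27 ± 3.21 FPKM. Ccl4, an inflammatory chemokine gene, had 1656, 2354 and 1381 FPKM with ethanol and 342, 518 and 548 with CPZ (log2 difference -1.93 ± 0.24 SE, limma adjusted p = 9.04e-05). Ccl6 was at 201 ± 34.3 against 21.1 ± 2.62 FPKM. Ptgs2, the inducible cyclooxygenase gene, had 133, 142 and 134 FPKM with ethanol and 436, 456 and 431 with CPZ (log2 difference 1.68 ± 0.10 SE, limma adjusted p = 3.56e-06). Ptges, which encodes the synthase of prostaglandin E2, was at 11.7 ± 1.18 against 37.9 ± 3.75 FPKM. Thromboxane synthase, Tbxas1, was at 0.271 ± 0.051 against 1.69 ± 0.168 FPKM, while the receptor gene Ptger4 (9.87 ± 2.65 against 3.26 ± 0.50 FPKM) and the second synthase gene Ptges2 (4.67 ± 1.22 against 1.56 ± 0.242 FPKM) were lower. In the prostaglandin and leukotriene list 8 of 14 were higher and 6 lower, and 7 higher and 6 lower under median-ratio scaling. The share of higher members as deposited was below the 60.6% of all genes.

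In arginine metabolism, 2 transporter genes and the gene of the inducible nitric oxide synthase were higher. Nos2 had 6.47, 6.9 and 5.31 FPKM with ethanol and 32.6, 24.4 and 25.2 with CPZ (log2 difference 1.97 ± 0.15 SE, limma adjusted p = 9.86e-06), above every ethanol library in each CPZ library. The arginine importer genes Slc7a1 (0.718 ± 0.24 against 15 ± 1.65 FPKM) and Slc7a2 (0.184 ± 0.0754 against 9.29 ± 3.14 FPKM) were higher, as was the ornithine decarboxylase gene Odc1 (18.7 ± 1.65 against 102 ± 16 FPKM). The mitochondrial arginase gene Arg2 (604 ± 33.4 against 303 ± 5.74 FPKM) and Acod1 (3934 ± 618 against 1804 ± 216 FPKM), which encodes the enzyme that makes itaconate, were lower. Of 15 tested members 7 were higher and 5 lower as deposited, but 7 higher and 8 lower under median-ratio scaling. Of the 15, 3 were below 1 FPKM in all ethanol libraries.

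The MAP kinases named in the study's title were divided. Of 28 tested kinases of these cascades 14 were higher and 9 lower, but 6 and 12 under median-ratio scaling, so the balance turned with the scaling. Map2k1, the gene of MEK1, had 26.9, 20.8 and 24.8 FPKM with ethanol and 81.7, 77.2 and 76.5 with CPZ (log2 difference 1.67 ± 0.12 SE, limma adjusted p = 8.59e-06). Map3k1 was at 2.69 ± 0.432 against 11.6 ± 1.86 FPKM, Mapk9, which encodes JNK2, at 1.58 ± 0.171 against 4.29 ± 0.379 FPKM and Braf at 4.16 ± 0.497 against 10.6 ± 1.41 FPKM. Map3k11, a kinase gene of the JNK branch, had 46.7, 39.7 and 46.2 FPKM with ethanol and 9.8, 8.66 and 8.12 with CPZ (log2 difference -2.20 ± 0.12 SE, limma adjusted p = 2.57e-06). Mapk13, which encodes p38 delta, was at 10.4 ± 0.59 against 2.26 ± 0.109 FPKM. Of the phosphatases that switch these kinases off, 3 of 9 were higher and 4 lower (2 and 6 under median-ratio scaling). Dusp10 was at 1.35 ± 0.103 against 5.5 ± 0.836 FPKM and Dusp3 at 0.273 ± 0.0376 against 2.39 ± 0.875 FPKM. Dusp16 was at 91.5 ± 10.1 against 26.1 ± 3.66 FPKM and Dusp2 at 58 ± 4.2 against 22 ± 5.71 FPKM.

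Immediate early genes, which are switched on within minutes of a signal, were lower in 14 of 30 cases and higher in 4 (7 without LPS+EtOH replicate 2), and 22 and 1 under median-ratio scaling. Ier2 was at 183 ± 5.09 against 25 ± 3.19 FPKM (log2 difference -2.82 ± 0.12 SE, limma adjusted p = 9.71e-07). The transcription factor gene Klf2 was at 172 ± 18.8 against 37.2 ± 0.394 FPKM and the AP-1 gene Junb at 918 ± 16.1 against 256 ± 42.9 FPKM. Jun, another AP-1 gene, went the other way, with 151, 157 and 168 FPKM with ethanol and 315, 390.5 and 311 with CPZ (log2 difference 1.08 ± 0.13 SE, limma adjusted p = 6.65e-05). Its difference was 0.31 and not called under median-ratio scaling.

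Trpv1, the channel gene of the title, was listed at 0 in all 6 libraries. Its relative Trpv2 was at 28.7 ± 2.06 against 12.9 ± 0.734 FPKM. Of 17 tested channel and calcium genes 9 were higher and 4 lower, a share of higher members below the 60.6% of all genes, and 5 and 7 under median-ratio scaling. P2rx7, the ATP-gated channel gene that triggers the NLRP3 inflammasome, had 0.105, 0.123 and 0.0562 FPKM with ethanol and 7.8, 7.85 and 9.26 with CPZ (log2 difference 3.08 ± 0.12 SE, limma adjusted p = 9.71e-07), against 1.58, 1.2 and 1.69 FPKM with LPS alone. Below 1 FPKM in all ethanol libraries, P2rx7 entered through the CPZ group and had to come out higher. It is also counted in the inflammasome list below. Atp2a2, which encodes the calcium pump of the endoplasmic reticulum, was at 4.75 ± 0.941 against 19.5 ± 1.04 FPKM and the lysosomal channel gene Mcoln2 at 0.94 ± 0.236 against 9.02 ± 3.02 FPKM. Orai2, which encodes a store-operated channel subunit, was at 23.5 ± 1.41 against 9.89 ± 0.395 FPKM. Within the inflammasome list 8 of 16 were lower and 5 higher (3 higher without LPS+CPZ replicate 3), against 11 lower and 1 higher under median-ratio scaling. Nlrp3 was at 242 ± 28.4 against 100.5 ± 8.27 FPKM and the noncanonical caspase gene Casp4 at 143 ± 19.9 against 39.8 ± 7.4 FPKM. The pyrin gene Mefv was at 451 ± 14.3 against 147 ± 28.4 FPKM and Txnip at 193 ± 17.9 against 54.1 ± 10.04 FPKM. Il18bp, which encodes a neutralizer of IL-18, was at 16.5 ± 2.52 against 28.8 ± 3.32 FPKM, a difference of 0.77 that was 0.03 and not called under median-ratio scaling. Of 23 tested cell death and p53 target genes 12 were higher and 7 lower, a share of higher members below the 60.6% of all genes, and 6 higher and 10 lower under median-ratio scaling. Higher were the cell cycle inhibitor gene Cdkn1a (6.03 ± 1.5 against 29.9 ± 3.27 FPKM), Bnip3l (13.7 ± 2.29 against 45.7 ± 6.85 FPKM) and Trp53inp1 (20.5 ± 6.43 against 73 ± 6.28 FPKM). Among the lower genes, the death receptor gene Fas was at 309 ± 20.2 against 116 ± 10.6 FPKM and Bbc3, the gene of PUMA, at 21.2 ± 3.49 against 5.27 ± 1.1 FPKM.

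Protein breakdown and synthesis genes differed less per gene, and as deposited in most members. Of 34 proteasome subunit genes 30 were higher (median 1.10), for example Psmc5 (16.2 ± 0.874 against 55.1 ± 5.06 FPKM) and Psmc4 (6.24 ± 0.197 against 23.3 ± 3.33 FPKM) of the ATPase ring. The 2 that were lower, Psmb8 (17.3 ± 4.93 against 9.38 ± 2.63 FPKM) and Psmb9 (14.6 ± 5.73 against 6.1 ± 3.36 FPKM), encode catalytic subunits of the immunoproteasome that interferon induces, and their groups overlapped. Without LPS+EtOH replicate 2 neither was called (Psmb8 -0.64, limma adjusted p = 0.0505, and Psmb9 -0.90, adjusted p = 0.0609). Of 30 ribosomal protein genes 28 and of 37 ribosome biogenesis genes 32 were higher and none lower (medians 1.18 and 0.91). Rps6 was at 70.4 ± 8.35 against 209.8 ± 35.2 FPKM, Rpl4 at 90.5 ± 13.8 against 269.8 ± 42.1 FPKM and the nucleolin gene Ncl at 17.9 ± 1.73 against 49.2 ± 5.44 FPKM. Pseudogene copies can take part of the fragments of ribosomal protein genes. Median-ratio scaling left 10 ribosomal protein genes higher and 1 lower, 14 and 4 of ribosome biogenesis, and 18 and 6 of the proteasome. Under that scaling 34.2% of all tested genes were higher and 34.4% lower. The shares of higher ribosomal protein and ribosome biogenesis genes were then near that of all genes, and that of the proteasome was above it. Of nuclear genes of the respiratory chain 26 of 32 were higher, among them Sdha (3.81 ± 0.656 against 15.7 ± 0.338 FPKM), a subunit of complex II, and none lower (15 higher and 5 lower under median-ratio scaling). Of 15 mitochondrially encoded genes 3 were higher and 2 lower as deposited. That count rested on 1 library and on the scaling, with 1 higher and 8 lower without LPS+EtOH replicate 1 and 0 higher and 9 lower under median-ratio scaling. The ribosomal RNA genes mt-Rnr2 (1352 ± 82.5 against 517 ± 64.7 FPKM) and mt-Rnr1 (506 ± 43.6 against 230.5 ± 11.4 FPKM) were lower. The complex IV gene mt-Co1 (1269 ± 265 against 1819.6 ± 131 FPKM) was higher, with -0.24 and no call under median-ratio scaling and 0.40 and no call without LPS+EtOH replicate 1 (limma adjusted p = 0.0532).

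Lysosome and autophagy genes, at 27 of 44 higher and 5 lower (3 without LPS+EtOH replicate 1 or 3 or LPS+CPZ replicate 2), stood near the share of all genes, with 15 higher and 16 lower under median-ratio scaling. Lipa, the lysosomal lipase gene, had 32.6, 28.1 and 45.5 FPKM with ethanol and 237, 182 and 217 with CPZ (log2 difference 2.57 ± 0.18 SE, limma adjusted p = 7.67e-06), against 35.2, 27.8 and 18.9 FPKM with LPS alone. The protective protein gene Ctsa was at 4.04 ± 0.16 against 21.5 ± 3.57 FPKM and the hexosaminidase gene Hexa at 43 ± 2.84 against 115 ± 7.54 FPKM. Atg5, which encodes a factor of autophagosome formation, was at 3.71 ± 0.404 against 13.9 ± 1.23 FPKM. The lysosomal regulator gene Tfe3 (39.9 ± 1.22 against 16.8 ± 1.17 FPKM) and Atg9a (14.7 ± 3.47 against 5.48 ± 1.13 FPKM) were lower. In cholesterol efflux and lipid storage, 12 of 20 genes were higher and 2 lower, a share of higher members at that of all genes, but 6 higher and 7 lower under median-ratio scaling. Of the 20, 5 were below 1 FPKM in all ethanol libraries. The cholesterol ester hydrolase gene Nceh1 was at 4.54 ± 0.428 against 30.1 ± 5.18 FPKM and the esterifying enzyme gene Soat1 at 13.1 ± 0.73 against 51.9 ± 4.02 FPKM. The efflux pump gene Abca1 was at 11 ± 3.59 against 4.94 ± 0.65 FPKM and Apoc2 at 21.3 ± 2.5 against 6.2 ± 0.396 FPKM. Of cholesterol synthesis and uptake genes 17 of 22 were higher, such as Insig1 (10.1 ± 1.55 against 32.6 ± 2.96 FPKM), a sterol-sensing regulator, and Mvd (46.7 ± 6.55 against 30.4 ± 4.06 FPKM) alone was lower. Of these 22, 5 were below 1 FPKM in all ethanol libraries, and median-ratio scaling left 8 higher and 5 lower.

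Of 18 tested antigen presentation genes 11 were higher and 3 lower (5 lower without LPS+EtOH replicate 1), and 9 higher and 7 lower under median-ratio scaling. The share of higher members as deposited was near the 60.6% of all genes. The class II gene H2-Aa, which B cells also express, was at 20.3 ± 5.65 against 75.3 ± 14.5 FPKM, its activator gene Ciita at 0.397 ± 0.294 against 2.52 ± 0.349 FPKM and the cathepsin gene Ctss at 34.3 ± 8.29 against 107 ± 13 FPKM. Cd80, the gene of the other CD28 ligand beside CD86, was lower (17.1 ± 0.685 against 5.93 ± 0.71 FPKM), as was Tapbp (114 ± 20.4 against 61 ± 13.2 FPKM), which encodes the peptide loading factor of class I. B cell markers in the same libraries summed to 184 to 249.6 FPKM in LPS+EtOH and 1316 to 1549 in LPS+CPZ, and the part of B cells in these values was not tested. Among phagocytic and Fc receptors 5 of 16 were higher and 6 lower, and 3 higher and 9 lower under median-ratio scaling. Of the 16, 3 were below 1 FPKM in all ethanol libraries. Tlr2 had 229.5, 257 and 202 FPKM with ethanol and 30.7, 30.4 and 28 with CPZ (log2 difference -2.90 ± 0.12 SE, limma adjusted p = 9.71e-07). Olr1, an oxidized lipoprotein receptor gene, was at 117 ± 3.03 against 45 ± 4.53 FPKM. The scavenger receptor gene Msr1 was at 0.144 ± 0.0473 against 3.1 ± 0.829 FPKM. Enzymes of alcohol and aldehyde metabolism were higher in 10 of 11 cases and lower in 1 (9 and 1 under median-ratio scaling), 3 of the 11 being below 1 FPKM in all ethanol libraries. The mitochondrial aldehyde dehydrogenase gene Aldh2 was at 13.8 ± 1.73 against 35.1 ± 2.49 FPKM. Adh5, a formaldehyde-oxidizing dehydrogenase gene, was at 1.5 ± 0.281 against 4.89 ± 0.453 FPKM and the aldehyde reductase gene Akr1a1 at 42.2 ± 6.19 against 116 ± 12.5 FPKM. Aldh3b1 was the exception, at 23.2 ± 5.43 against 14.1 ± 2.71 FPKM. Aldh2 had 17.7, 17.6 and 21.2 FPKM with LPS alone, between the means of the other groups.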

How the data were processed

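Peritoneal macrophage RNA was sequenced in 9 libraries of 3 groups, each library a pool of 3 RNA samples. The authors deposited 1 table of FPKM values for 55335 mouse gene IDs. Per the submitters' processing notes, FastQC 0.11.2, STAR and StringTie were used, the last pair without versions. They give hg38, a human build, although the IDs are mouse, so no position was taken from them. The labels call the libraries strand-specific, and whether strand was used in the quantification is not given in the sources used here. FPKM are not counts, so depth and counting error are unknown.

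Here the 10226 genes that reached 1 FPKM in 3 or more of the 6 libraries were tested with limma 3.58.1 in R 4.3.3 on log2(FPKM + 1), with a moderated variance trend and group as the only term. P-values were adjusted by Benjamini and Hochberg, with a threshold of 0.05, and the script was tested on simulated data. Fold changes on the log2(FPKM + 1) scale understate differences of low genes. Folds in the text are ratios of group means of FPKM. Median-ratio scaling divided each library by its median ratio to the geometric mean library. Gene types came from GENCODE M21, which held 55154 of the IDs, and promoters from RefSeq (GRCm38.p6).

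Genes and lists were chosen with earlier results of these data known. Named genes were the 10 largest rises and falls (no overlap, mean of at least 5 FPKM, excluding gene models without a common name), 13 genes of the study's question, and for each list up to 4 members with the smallest adjusted p in its commoner direction and up to 2 in the other, of which 1 is not reported here. These were named after their values were seen: Adgre1, Adh5, Aldh2, Atf4, Cd68, Chordc1, Cryab, Csf3r, Cxcr2, Ddit3, Dnajb1, Egln3, Fth1, Ftl1, Gclm, Gm22133, Hsf1, Hspa1b, Hspa4l, Hspa5, Hsph1, Il10ra, Il1rn, Ldha, Lyz2, Mmp9, Ms4a1, Mt1, Nfkb1, Nlrp3, Pgk1, Rel, Rela, Slc2a1, Slc7a11, Socs3, Tnfaip3 and Vegfa, and the genes below the filter. Alternatives changed the pseudocount, the filter, the scaling, the variance model, the samples in the fit and the fold threshold, and each library was left out in turn. Symbols held by more than 1 ID were left out of lists.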

Additional observations from a re-analysis of the deposited data

How the results depend on the processing

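The 6198 genes higher and 1767 lower in LPS+CPZ depended most on how the libraries were scaled. Median-ratio scaling gave 3494 higher and 3520 lower, and quantile scaling 3610 and 2918. A filter of 5 FPKM in 3 libraries left 5061 genes, of which 2669 were higher and 1188 lower. A log2 difference of at least 1 was also met by 2779 higher and 849 lower genes. Leaving out 1 library at a time gave 5819 to 6097 higher and 1615 to 1755 lower. Both counts stayed within 1.5 times the reported ones with pseudocounts of 0.1 and 5, no filter, a mean filter, TPM scaling, S100a8 and S100a9 left out of the totals, other variance models and all 9 libraries in the fit. Of the alternatives chosen after seeing the data, leaving S100a8, S100a9 and Gm22133 out of the totals gave 6092 and 1735, and protein-coding genes alone 5429 and 1276.

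The replicate number as a block gave 6188 higher and 1792 lower. Deviations of same-numbered libraries correlated at 0.05, 0.15 and 0.08, and not every library correlated best with its own number, so the libraries share only a number.

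For some named genes, most with a difference near 0, the sign turned with the setting. Under median-ratio scaling the log2 difference was -0.27 for Atf4, -0.63 for Cd68, -0.29 for Hspa4l, -0.70 for Hspa5, -0.66 for Slc7a11, -0.31 for Sphk1 and -0.24 for mt-Co1. After quantile scaling it was 0.039 for Adgre1, -0.16 for Cryab, 0.59 for Fth1, -0.12 for Hspa4l, 0.15 for Lyz2 and -0.53 for Sphk1. TPM scaling gave 0.0345 for Adgre1 and 0.0431 for Fth1, and S100a8 and S100a9 left out of the totals -0.0325 for Hspa5. Leaving out 1 library at a time gave -0.139 to 0.0702 for Adgre1, -0.0983 to 0.0686 for Fth1, -0.327 to 0.14 for Lyz2, -0.0405 to 0.203 for Sphk1 and -0.0425 to 0.164 for Hspa5. Apart from scaling, the cause of these turns was not tested. FPKM values give no depth, so the number of libraries limits the precision.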

Other observations

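Gene types differed in how their members stood. Of 8436 protein-coding genes 5379 were higher and 1263 lower in LPS+CPZ as deposited, and 3070 and 2740 under median-ratio scaling. Of 201 antisense genes 59 were higher and 92 lower (33 and 124 under median-ratio scaling), and of 174 lincRNA genes 58 and 65 (33 and 95). Small RNA genes, whose mature products such libraries do not measure as such, had 36 higher and 51 lower of 119 microRNA genes (19 and 64 under median-ratio scaling) and 18 and 25 of 73 snoRNA genes (9 and 40). Gm22133, annotated as a microRNA gene, had 23383, 25843 and 27541 FPKM with ethanol and 42189.6, 46919.5 and 58062 with CPZ, so that a single short gene took 7.29% and 14.4% of all FPKM in the group means. Its log2 difference of 0.93 was 0.15 and not called under median-ratio scaling. Reads of antisense genes and of their partners cannot be told apart if strand was not used.

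The median log2 difference was similar over the range of transcript length and base composition. In 5 equal bins of the longest transcript's length the medians lay between 0.59 and 0.66, and in 5 bins of GC content between 0.58 and 0.68.

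Proliferation genes were sparse: 13 of 31 cell cycle and replication genes were tested, 7 were higher and 2 lower as deposited, a share of higher members below the 60.6% of all genes, and 1 higher and 6 lower under median-ratio scaling. Of dendritic cell markers 5 of 12 were tested and all 5 were higher under both scalings, but 2 of them were below 1 FPKM in all ethanol libraries and had to come out higher. Fscn1 was at 0.265 ± 0.0359 against 1.5 ± 0.265 FPKM and the cross-presenting cell marker Xcr1 at 0.659 ± 0.102 against 3.22 ± 0.615 FPKM, and these are the 2 that entered in that way. The receptor genes Fcgr1 and Mertk, often used to mark macrophages, did not reach the filter, at means of 0.116 FPKM in LPS+EtOH and 1.41 in LPS+CPZ for Fcgr1 and 0.0217 FPKM in LPS+EtOH and 0.208 in LPS+CPZ for Mertk.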
